A study of Homo sapiens with 12 samples.

Results

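The difference between 2 paclitaxel effects was measured across genes: the effect in cells with a GLI2 knockout minus the effect in cells without it. The contrast used all 12 samples of the series, 3 in each of 4 groups. A positive log2 difference means that paclitaxel moved the transcript further up, or less far down, in GLI2 KO cells. All cells were MDA-MB-231b, a bone-tropic derivative of the human triple-negative breast cancer line MDA-MB-231 derived by passaging the cells repeatedly in athymic nude mice, through their marrow. The groups were WT in DMSO, WT in paclitaxel (PTX), GLI2 KO in DMSO and GLI2 KO in paclitaxel. Treatment lasted 2 days, with 50 nM paclitaxel or the solvent. Per the series design text, the cells were transduced with lentiviral CRISPR-Cas9, in which the guide was either directed at GLI2 or non-targeted, and the labels name the genotypes GLI2 KO and WT. The sources used here do not give whether the GLI2 KO cells were a clone or a pool. The labels do not say whether replicates were grown as separate cultures, and p-values therefore reflect the spread among these samples alone, part of which may be technical.

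Paclitaxel binds and stabilises microtubules, which disturbs the mitotic spindle and stops cells in mitosis. GLI2 is a zinc-finger transcription factor at the end of the Hedgehog pathway, and in bone-metastatic breast cancer cells it is known for driving PTHLH, a factor that promotes bone breakdown. A difference of effects can take several forms: a gene may move in opposite directions, move further in the knockout, or move less far in it. These forms were counted separately.

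Totals were 83230948 to 109018776 counts per sample, and 21974 of 25049 genes (87.7%) were tested. Levels are given in CPM, counts scaled to library size with TMM factors, and at these depths 3 counts equal 0.0275 to 0.036 CPM. The line's own markers were high in every group (VIM at 1865 to 2923 CPM, KRT18 at 239 to 299 and CD44 at 257 to 292 as group means), and ESR1 was not listed in the table. Of the markers of other cells, the 7 haematopoietic ones listed, of 11, summed to 0.672 to 4.23 CPM, and the 5 endothelial ones, of 7, to 1.19 to 4.53 CPM. The 6 fibroblast and osteoblast markers listed, of 10, summed to 12.4 to 14 CPM in WT cells in DMSO, 18.5 to 19.5 CPM in WT cells in paclitaxel, 16.2 to 21.8 CPM in GLI2 KO cells in DMSO and 29.8 to 33.2 CPM in GLI2 KO cells in paclitaxel. All 3 sums were higher in paclitaxel in each genotype. Of 6 kidney and packaging cell markers 2 were listed. In WT cells these summed to 2.3 to 2.44 CPM in DMSO and 4.22 to 5.18 CPM in paclitaxel. In GLI2 KO cells the treatments shared a range, with 2.15 to 2.49 CPM in DMSO and 2.23 to 2.48 CPM in paclitaxel. The part of these markers in the results was not tested. GLI2 KO replicate 3 in DMSO (library 11), GLI2 KO replicate 3 in paclitaxel (library 12) and WT replicate 2 in DMSO (library 5) stood further from their group than other libraries did, with chi-square per degree of freedom of 6.627 to 16.16 against the rest of the group. Library numbers 1 to 6 were WT and 7 to 12 were GLI2 KO, so any handling that followed the library number cannot be told apart from genotype.

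GLI2 (ENSG00000074047) was measured at 10.4, 11.4 and 10.6 CPM in WT cells in DMSO and at 6.42, 5.65 and 4.97 CPM in WT cells in paclitaxel. With the knockout, GLI2 was at 9.28, 8.23 and 10.1 CPM in DMSO and at 3.97, 4.14 and 4.39 CPM in paclitaxel. The samples in paclitaxel lay below those in DMSO in both genotypes, and the transcript was present in the knockout, and an RNA level leaves the state of the GLI2 protein unmeasured. The GLI2 effects of -0.93 and -1.14 on the log2 scale differed by -0.21 ± 0.12 (edgeR adjusted p = 0.27), which did not pass.

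The genotypes differed in their paclitaxel effect for 2963 genes, or 13.5% of those tested (edgeR quasi-likelihood F test, Benjamini-Hochberg adjusted p below 0.05, two-sided, here "called"). Of these, 1441 were called higher in GLI2 KO (6.56% of genes tested) and 1522 lower (6.93%). A further threshold of a 2-fold difference, which is 1 on the log2 scale, left 307 genes (1.40%), of which 104 were higher and 203 lower. Scaling to library totals in place of TMM turned the split to 1770 higher and 1249 lower. RLE factors (1551 higher and 1356 lower) and DESeq2 (1707 and 1476) turned it too, whereas upper-quartile factors gave 1298 higher and 1707 lower. The balance of the 2 directions thus depends on the scaling. Over all genes the median difference was -0.016. Without libraries 11 and 12 the number called was 3555, and 2590 of the 2963 genes (87.4%) were among them. A value after ± beside a log2 effect or difference is its approximate standard error.

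Most of the response to paclitaxel had the same direction in both genotypes. The WT effect was called for 14660 genes (66.7% of those tested) and the GLI2 KO effect for 14327 (65.2%). Of the 17106 genes called in at least 1 genotype, 91.9% had effects of the same sign. Across these genes the 2 effects had a Pearson r of 0.8812, given as a description because genes are not independent and all libraries share a line. The median size of the effect over the same genes was 0.42 in WT and 0.41 in GLI2 KO cells. Among the 11881 genes called in both genotypes, 1703 were also called in the difference.

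**Figure D1:**
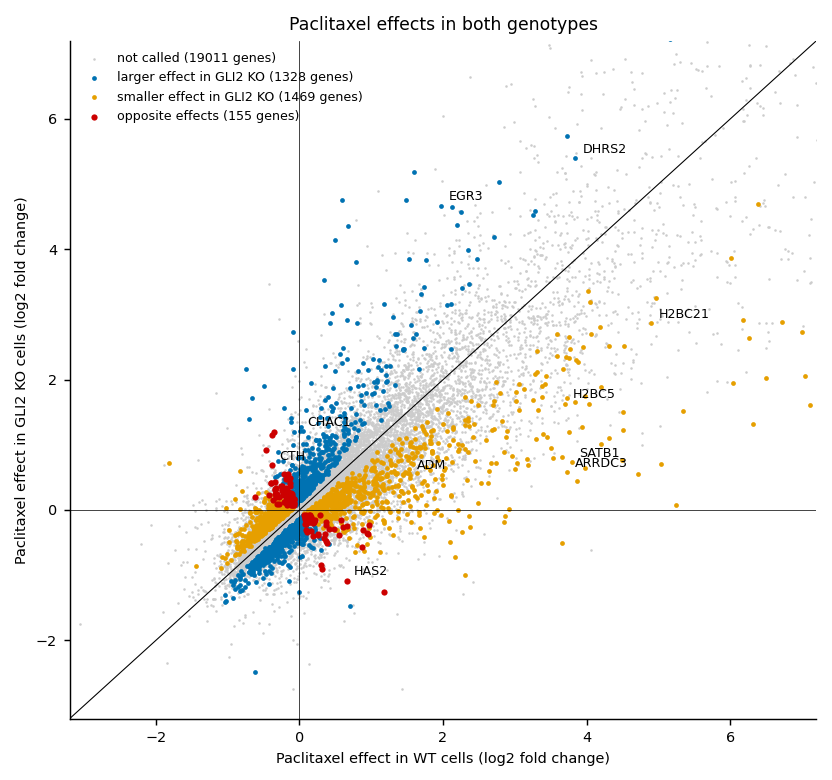
Paclitaxel effect in WT cells (horizontal axis, log2 fold change) against the effect in GLI2 KO cells (vertical axis), 1 point per gene tested, with the line of equal effects. The 155 genes with opposite effects lie in the upper left and lower right parts of the plot, close to the origin apart from a few such as HAS2, the 1328 with a larger effect in the knockout lie further from the horizontal axis than from the vertical, and the 1469 with a smaller effect include ARRDC3, SATB1 and H2BC5. Grey points also hold the 11 genes called with neither effect called, and 64 genes outside the plotted range are not drawn.

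The 2963 genes fell into 6 sets by direction and size. A smaller fall in GLI2 KO cells was found for 767 genes (25.9% of those called), a larger fall for 750 (25.3%), a smaller rise for 702 (23.7%) and a larger rise for 578 (19.5%). Opposite effects, each called in its own genotype, were found for 155 genes: 90 rose in GLI2 KO and fell in WT cells, and 65 did the reverse. For the remaining 11 genes the effect that was larger in size was not itself called. The smaller rises held the greatest distances, with a median effect of 0.85 in WT and 0.21 in GLI2 KO cells and 190 genes at least 2-fold apart. The larger rises had medians of 0.13 in WT and 0.55 in GLI2 KO cells, with 94 genes at least 2-fold apart. Among falls the distances were short: the larger falls went from a median of -0.16 in WT to -0.39 in GLI2 KO cells, the smaller falls from -0.36 to -0.12, and only 4 and 5 of these genes reached 2-fold.

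The same 4 group means show at which treatment the genotypes were apart, which describes the difference and gives no further evidence for it. Of the called genes, 927 (31.3%) had a called genotype difference in paclitaxel only and 819 (27.6%) in DMSO only. In 951 (32.1%) the genotypes differed in both treatments with the same sign, and in 224 (7.6%) with opposite signs. A log2 difference need not be a difference in CPM gained: for 80 of the 2963 genes the difference of mean CPM gains had the other sign, and 44 of these were smaller rises.

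Genes with opposite effects were led by the hyaluronan synthase HAS2, which makes a large sugar polymer of the extracellular matrix. HAS2 (ENSG00000170961, chromosome 8 from 121612116 to 121641390, minus strand) was measured at 4.43, 4.14 and 4.0 CPM in WT cells in DMSO and at 5.73, 7.03 and 7.11 CPM in WT cells in paclitaxel. The GLI2 KO samples held HAS2 at 18.3, 18 and 17.2 CPM in DMSO and at 8.67, 7.69 and 8.80 CPM in paclitaxel. All WT samples in paclitaxel lay above those in DMSO, and all GLI2 KO samples in paclitaxel lay below those in DMSO. HAS2 rose by 0.66 ± 0.08 in WT and changed by -1.09 ± 0.07 in GLI2 KO cells, a difference of -1.75 ± 0.11 (edgeR adjusted p = 3.0e-10). The levels of the genotypes thus lay far apart in DMSO and close together in paclitaxel.

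Among genes of at least 5 CPM in a group, the next 4 by difference in this direction were DNM1, MAP2, FREM2 and DSC2, and like HAS2 each was lower in every WT sample than in any GLI2 KO sample. DNM1, a dynamin that pinches off endocytic vesicles, rose by 0.97 in WT and fell in GLI2 KO cells (-0.23), a difference of -1.20 ± 0.15 (adjusted p = 8.3e-06). MAP2, a microtubule-associated protein best known from neurons, was measured at 0.589, 0.452 and 0.644 CPM in WT cells in DMSO and at 0.994, 1.28 and 0.888 CPM in paclitaxel. MAP2 in the knockout was at 5.45, 6.27 and 5.14 CPM in DMSO and at 4.89, 4.32 and 4.44 CPM in paclitaxel. Paclitaxel samples were the higher ones in WT and the lower ones in GLI2 KO cells, and the 2 MAP2 effects (0.89 and -0.31) differed by -1.20 ± 0.20 (adjusted p = 0.00025). FREM2, a basement membrane protein, had effects of 0.55 and -0.38, and DSC2, a desmosomal cadherin, had effects of 0.67 and -0.25.

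In the other direction, CTH had the greatest distance among genes of at least 5 CPM. CTH encodes cystathionine gamma-lyase, which makes cysteine from cystathionine. CTH (ENSG00000116761, chromosome 1 from 70411218 to 70439851, plus strand) was measured at 17, 14.7 and 17.3 CPM in WT cells in DMSO and at 13.2, 12.9 and 11.7 CPM in WT cells in paclitaxel. In GLI2 KO cells the values of CTH were 21.5, 23.5 and 16.6 CPM in DMSO and 31.8, 34.7 and 32.8 CPM in paclitaxel. The treatments did not overlap in either genotype, and in DMSO GLI2 KO replicate 3 of CTH lay within the WT range. CTH fell in WT (-0.38 ± 0.12) and rose in GLI2 KO cells (0.69 ± 0.11), a difference of 1.07 ± 0.17 (adjusted p = 0.0026). Without libraries 11 and 12 the CTH difference was 0.94 and was still called.

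HOXB9, a homeobox transcription factor, was at 25.5, 24.1 and 25.8 CPM in WT cells in DMSO and at 17.2, 17 and 14.9 CPM in paclitaxel. HOXB9 in GLI2 KO cells was at 22.3, 23.9 and 19.5 CPM in DMSO and at 26.2, 26.1 and 23.6 CPM in paclitaxel. WT cells lost HOXB9 in paclitaxel with no overlap, whereas the GLI2 KO ranges met near 23.6 to 23.9 CPM. The difference was 0.82 ± 0.10 (adjusted p = 5.2e-05). Of 20 HOX genes tested, a list added after the values were seen, HOXB9 alone was called (5.0%, against 13.5% of all genes tested). GALNT12, an enzyme that starts O-linked glycosylation, had effects of -0.40 and 0.41. Other genes overlap 21.1% of its exon bases, and whether reads were counted by strand is not given. PPP4R4, a regulatory subunit of protein phosphatase 4, had effects of -0.35 and 0.42. GALNT12 and PPP4R4 reached 5 CPM in WT cells only. Mean levels of GALNT12 in DMSO and paclitaxel were 5.84 and 4.44 CPM in WT and 0.871 and 1.16 CPM in GLI2 KO cells. Those of PPP4R4 were 5.12 and 4.02 CPM in WT and 0.752 and 1.01 CPM in GLI2 KO cells. The long non-coding RNA LINC00452 had effects of -0.21 and 0.56, a difference of 0.77 ± 0.07 (adjusted p = 7.2e-08).

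**Figure D2:**
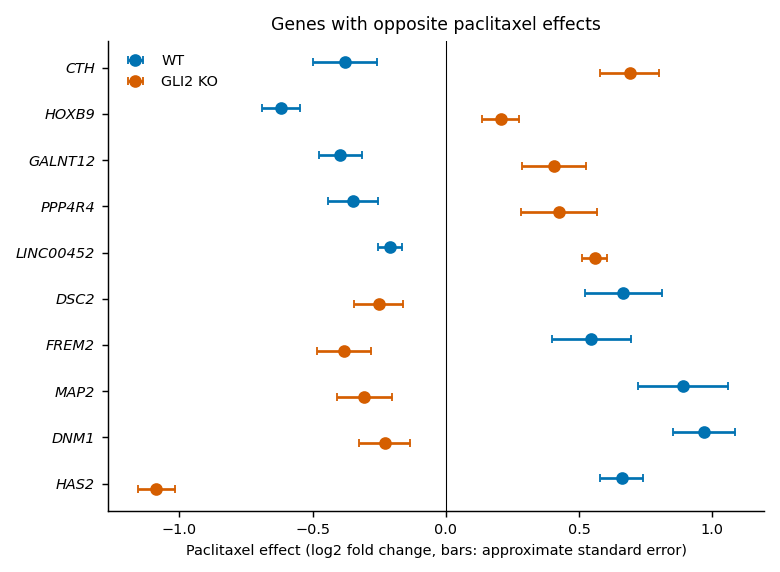
Paclitaxel effect (log2 fold change, horizontal axis) in WT and GLI2 KO cells for the 5 genes of at least 5 CPM in a group with the greatest difference in each direction of opposite effects, with approximate standard errors as bars. The upper 5 genes, CTH to LINC00452, fell in WT and rose in GLI2 KO cells, and the lower 5, DSC2 to HAS2, did the reverse, with HAS2 the furthest apart.

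Over all 155 genes with opposite effects the distances were mostly short. The 90 that rose in the knockout had median effects of -0.16 in WT and 0.18 in GLI2 KO cells, and the 65 that fell had medians of 0.16 and -0.18. The 2 treatments did not overlap in either genotype for 129 of them, where 56.3% of all genes tested met that condition. These genes were chosen because both effects were called in the same samples, so their share gives no further evidence. Only 13 were at least 2-fold apart. The size of this set depended on the setting: it held 62 genes at an adjusted p below 0.01 and 237 with consecutive library numbers as a block.

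Genes with a larger rise in GLI2 KO cells included DHRS2, a short-chain dehydrogenase, which was measured at 5.17, 4.52 and 4.78 CPM in WT cells in DMSO and at 71.9, 73.2 and 62.9 CPM in paclitaxel. For DHRS2 the GLI2 KO values were 2.31, 1.81 and 1.66 CPM in DMSO and 69.6, 78.7 and 92.7 CPM in paclitaxel. The genotypes overlapped in paclitaxel and were apart in DMSO. The DHRS2 effects of 3.84 and 5.39 differed by 1.55 ± 0.23 (adjusted p = 0.0029).

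RELB, a subunit of the non-canonical NF-kB pathway, was measured at 7.02, 6.23 and 6.75 CPM in WT cells in DMSO and at 12.6, 13 and 11.5 CPM in paclitaxel. Knockout cells held RELB at 5.83, 5.66 and 3.59 CPM in DMSO and at 23.0, 25.4 and 23.0 CPM in paclitaxel. The GLI2 KO samples were lower in DMSO and higher in paclitaxel than every WT sample. The RELB effects of 0.89 and 2.25 differed by 1.36 ± 0.19 (adjusted p = 0.0012), and by 1.19 without libraries 11 and 12. ALOXE3, an epidermal lipoxygenase, had effects of 1.69 and 3.31. The antisense RNA CHILL1 had effects of 1.73 and 3.42. SPX, which encodes the peptide hormone spexin, had effects of 3.25 and 4.52, and its call was lost without WT replicate 1 in DMSO (adjusted p = 0.0573).

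Of the 5 named genes with a larger fall in GLI2 KO cells, 4 were held by WT cells at under 3 CPM. CORO2B, an actin-binding coronin, was at 6.5, 6.67 and 6.29 CPM in GLI2 KO cells in DMSO and at 3.84, 4.17 and 3.94 CPM in paclitaxel, while the WT samples lay between 1.59 and 2.12 CPM in both treatments. SLC4A4, a sodium bicarbonate cotransporter, fell in GLI2 KO cells (-0.72) and had a WT effect of 0.01 that was not called. TP73, a relative of p53, fell in both genotypes, with effects of -0.42 in WT and -1.13 in GLI2 KO cells. CCDC69, a coiled-coil protein of the central spindle, was at 41.5, 43.0 and 42.1 CPM in WT cells in DMSO and at 31.5, 31.7 and 32.6 CPM in paclitaxel. With the knockout, CCDC69 was at 55.9, 55 and 62.2 CPM in DMSO and at 29.6, 28.8 and 30.0 CPM in paclitaxel. The knockout was above WT in DMSO and below it in paclitaxel, with no overlap in either, and the CCDC69 effects differed by -0.57 ± 0.06 (adjusted p = 6.7e-07). FRY had effects of 0.04 and -0.52, and its call (adjusted p = 0.038) was lost in 8 of the 12 refits that left out a single sample.

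The greatest distance of any named gene was a smaller rise. ARRDC3, an alpha-arrestin that directs membrane receptors to degradation, was measured at 20.1, 16.5 and 18.4 CPM in WT cells in DMSO and at 222, 241 and 271 CPM in paclitaxel. The GLI2 KO samples held ARRDC3 at 29.1, 30.4 and 23.3 CPM in DMSO and at 38.8, 40.4 and 44.6 CPM in paclitaxel. Every treated GLI2 KO sample was above its DMSO controls, and every treated WT sample was far above all of them. ARRDC3 rose by 3.73 ± 0.13 in WT and by 0.58 ± 0.12 in GLI2 KO cells, a difference of -3.15 ± 0.17 (adjusted p = 1.6e-05), or -3.32 without libraries 11 and 12. ARRDC3 was the single gene called among 8 tested alpha-arrestin and glucose-responsive genes (12.5%, against 13.5% of all genes tested). Across refits 1 to 3 of these genes were called lower and 0 to 1 higher. The ARRDC3 relatives ARRDC4 (effects of 3.72 and 3.37) and TXNIP (2.20 and 2.46), named after their values were seen, were not called.

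SATB1, a chromatin organiser, had effects of 3.80 in WT and 0.74 in GLI2 KO cells, but its levels differ so much between genotypes that the scale matters. It was at 0.0122 to 0.0579 CPM in WT cells in DMSO and 0.455 to 0.503 CPM in paclitaxel, against 2.86 to 3.20 CPM and 4.93 to 5.38 CPM in GLI2 KO cells. In CPM the gain of SATB1 was 0.443 in WT and 2.04 in GLI2 KO cells, so the knockout gained more transcript and rose by fewer fold. CAPN8, a calpain protease, had effects of 3.18 and 0.69. GLI2 KO replicate 3 in DMSO held CAPN8 at 5.79 CPM and replicates 1 and 2 at 1.95 and 2.10 CPM, and the call (adjusted p = 0.049) was lost in 9 of the 12 refits that left out a single sample. H2BC5 and H2BC21, which complete the named genes of this set, are histone genes and are described below.

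Smaller falls were led by SLC6A9, PCK2, RPL22L1, SLC1A4 and ITGB4. SLC6A9, a glycine transporter, was at 6.10, 5.08 and 6.08 CPM in WT cells in DMSO and at 3.10, 3.39 and 2.80 CPM in paclitaxel. SLC6A9 in the knockout was at 5.68, 5.98 and 5.70 CPM in DMSO and at 6.67, 7.0 and 5.87 CPM in paclitaxel. WT cells lost the transcript with no overlap, and the GLI2 KO ranges met. The SLC6A9 effects of -0.90 and 0.17 differed by 1.07 ± 0.13 (adjusted p = 4.0e-06).

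PCK2, the mitochondrial phosphoenolpyruvate carboxykinase, was at 33.5, 28.5 and 31.2 CPM in WT cells in DMSO and at 17.3, 18.9 and 16.3 CPM in paclitaxel. For PCK2 the GLI2 KO values were 28.1, 26.4 and 24.0 CPM in DMSO and 27.0, 26.1 and 25.9 CPM in paclitaxel. The fall was seen in WT cells and the GLI2 KO samples of both treatments shared a range, with PCK2 effects of -0.83 and 0.01 and a difference of 0.84 ± 0.09 (adjusted p = 1.1e-05). SLC1A4, a transporter of alanine, serine and cysteine, had effects of -0.70 and -0.04 and a difference of 0.65 ± 0.06 (adjusted p = 4.2e-07). RPL22L1, a ribosomal protein paralogue, was at 214 to 220 CPM in WT cells in DMSO and 108 to 111 CPM in paclitaxel. RPL22L1 was at 33.7 to 38.6 CPM and 28.6 to 30.3 CPM in GLI2 KO cells, and its effects were -0.99 and -0.31. ITGB4, a laminin-binding integrin subunit, had effects of -0.42 and 0.22.

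**Figure D3:**
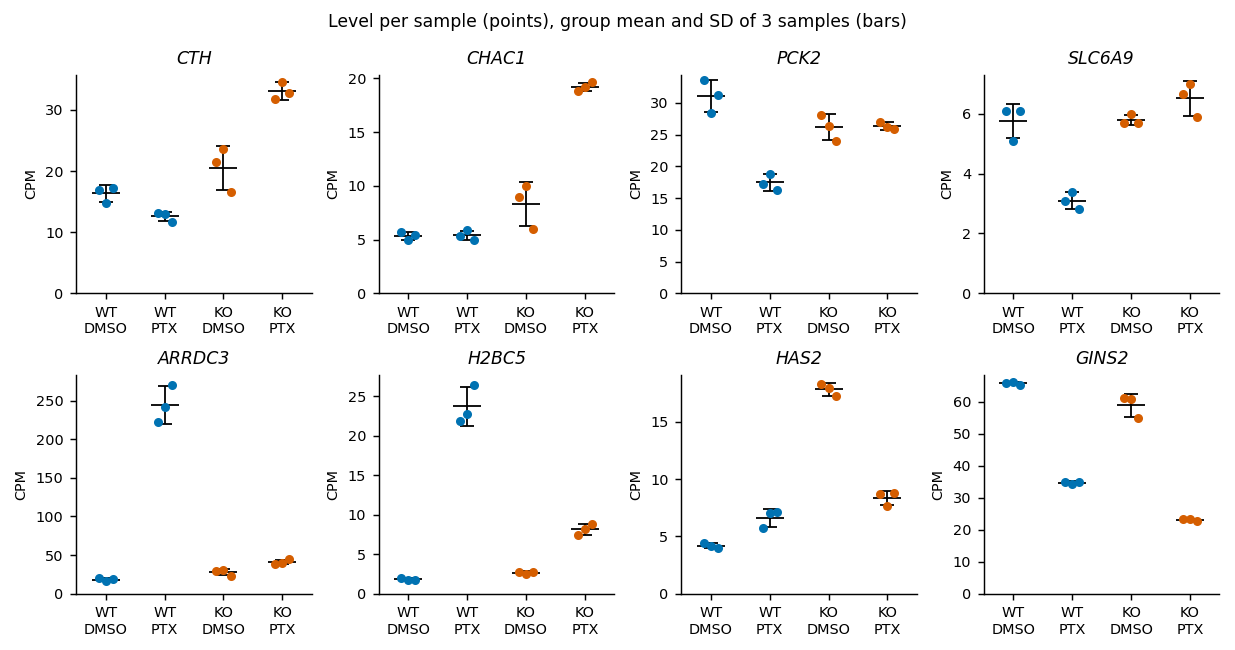
Level in CPM (vertical axis, starting at 0) of 8 genes in each sample (points) with group mean and SD (bars, n = 3), WT in blue and GLI2 KO in orange. CTH and HAS2 moved in opposite directions, CHAC1 rose in the knockout with a WT effect of 0.00, PCK2 and SLC6A9 fell in WT cells, ARRDC3 and H2BC5 rose less in the knockout, and GINS2 fell further in it.

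Genes of the integrated stress response had the highest share of calls among the fixed lists with at least 2 members tested. In this response, kinases that sense stress or lack of amino acids slow general translation, while translation of the transcription factor ATF4 is favoured. ATF4 and its partners then switch on genes that make, import and load amino acids. Of 31 members tested, 18 were called higher in GLI2 KO and 1 lower, 61.3% against 13.5% of all genes tested. The median difference was 0.474, with median effects of -0.315 in WT and 0.241 in GLI2 KO cells. By set, 3 had opposite effects, 3 a larger rise, 12 a smaller fall and 1 a smaller rise. Without libraries 11 and 12, 22 members were called higher and 2 lower, and across all refits the number called higher was 14 to 23.

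Transcription factors and feedback genes of this response differed from each other. ATF4 itself was at mean levels of 281 and 256 CPM in WT and 294 and 253 CPM in GLI2 KO cells in DMSO and paclitaxel, and its effects of -0.13 and -0.22 did not differ by the test (difference -0.09 ± 0.08, adjusted p = 0.55). DDIT3, the pro-apoptotic factor CHOP, rose in both genotypes, by 1.08 in WT and 1.99 in GLI2 KO cells (difference 0.92 ± 0.19, adjusted p = 0.015). CEBPG, a dimer partner of ATF4, fell in WT (-0.49) and had an effect of 0.13 in GLI2 KO cells. TRIB3, a pseudokinase that restrains the response, fell in WT (-0.32) and rose in GLI2 KO cells (0.24). DDIT3, CEBPG, TRIB3 and the further members named here beyond CHAC1, ASNS and CTH were picked after their values were seen.

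CHAC1, which degrades glutathione, was measured at 5.68, 4.97 and 5.41 CPM in WT cells in DMSO and at 5.34, 5.86 and 4.96 CPM in paclitaxel. Knockout cells held CHAC1 at 8.99, 10.002 and 6.03 CPM in DMSO and at 18.8, 19.2 and 19.6 CPM in paclitaxel. WT samples of both treatments shared a range, and the treated GLI2 KO samples lay above all others. The CHAC1 effects of 0.00 and 1.21 differed by 1.20 ± 0.22 (adjusted p = 0.0052), and by 0.996 without libraries 11 and 12.

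ASNS, asparagine synthetase, was at 2.35, 1.65 and 2.25 CPM in WT cells in DMSO and at 1.80, 1.70 and 1.32 CPM in paclitaxel. With the knockout, ASNS was at 1.90, 1.81 and 1.22 CPM in DMSO and at 3.66, 3.91 and 3.33 CPM in paclitaxel. The treated GLI2 KO samples lay above all others, while the WT ranges met. The ASNS effects of -0.39 and 1.15 differed by 1.53 ± 0.22 (adjusted p = 0.00012). ASNS shares 44.6% of its exon bases with an overlapping gene, so part of its counts may belong elsewhere.

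Of the enzymes of serine and one-carbon metabolism in this list, 5 fell in both genotypes and fell less in GLI2 KO cells, and 1 did not. PHGDH, which opens the serine pathway, had effects of -0.67 and -0.36, and PSAT1, which follows it, had effects of -1.01 and -0.68. PSPH, the last enzyme of the pathway, had effects of -0.50 and -0.12. The mitochondrial folate enzymes SHMT2 (effects of -0.67 and -0.41) and MTHFD2 (-0.71 and -0.40) were also called. ALDH1L2, another mitochondrial folate enzyme, rose in both genotypes (1.28 and 1.68), and its difference was not called (adjusted p = 0.52). Of the transporters, SLC7A11, which imports cystine, had effects of -0.56 and 0.01, and SLC7A1 (-0.56 and -0.31) and SLC1A5 (-0.46 and -0.19) fell less in the knockout. STC2, a secreted glycoprotein, rose by 1.58 in WT and by 2.63 in GLI2 KO cells. GDF15, a stress cytokine also controlled by p53, was the exception: it rose by 3.31 in WT and by 2.44 in GLI2 KO cells, a difference of -0.87 ± 0.11 (adjusted p = 9.6e-05). Among members that were not called, ATF3 had effects of 1.94 and 2.69 and DDIT4 had effects of -0.34 and 0.27.

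Enzymes that charge transfer RNAs with amino acids, a list added after the values were seen, are partly regulated by ATF4 as well. Of 20 cytosolic tRNA synthetases tested, 13 were called higher in GLI2 KO (65.0%, against 6.56% of all genes tested) and 0 lower, with a median difference of 0.165. In WT cells 17 of the 20 fell, where 32.1% of all genes tested fell, and in GLI2 KO cells 9 fell (all genes 32.2%) and 4 rose (33%). AARS1 fell in WT (-0.35) and rose in GLI2 KO cells (0.25), and GARS1 had effects of -0.47 and -0.08. Of 17 mitochondrial tRNA synthetases 2 were called higher and 0 lower (11.8% in all, against 13.5% of all genes tested). Of 22 amino acid transporters 7 were called higher and 4 lower (50.0%).

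**Figure D4:**
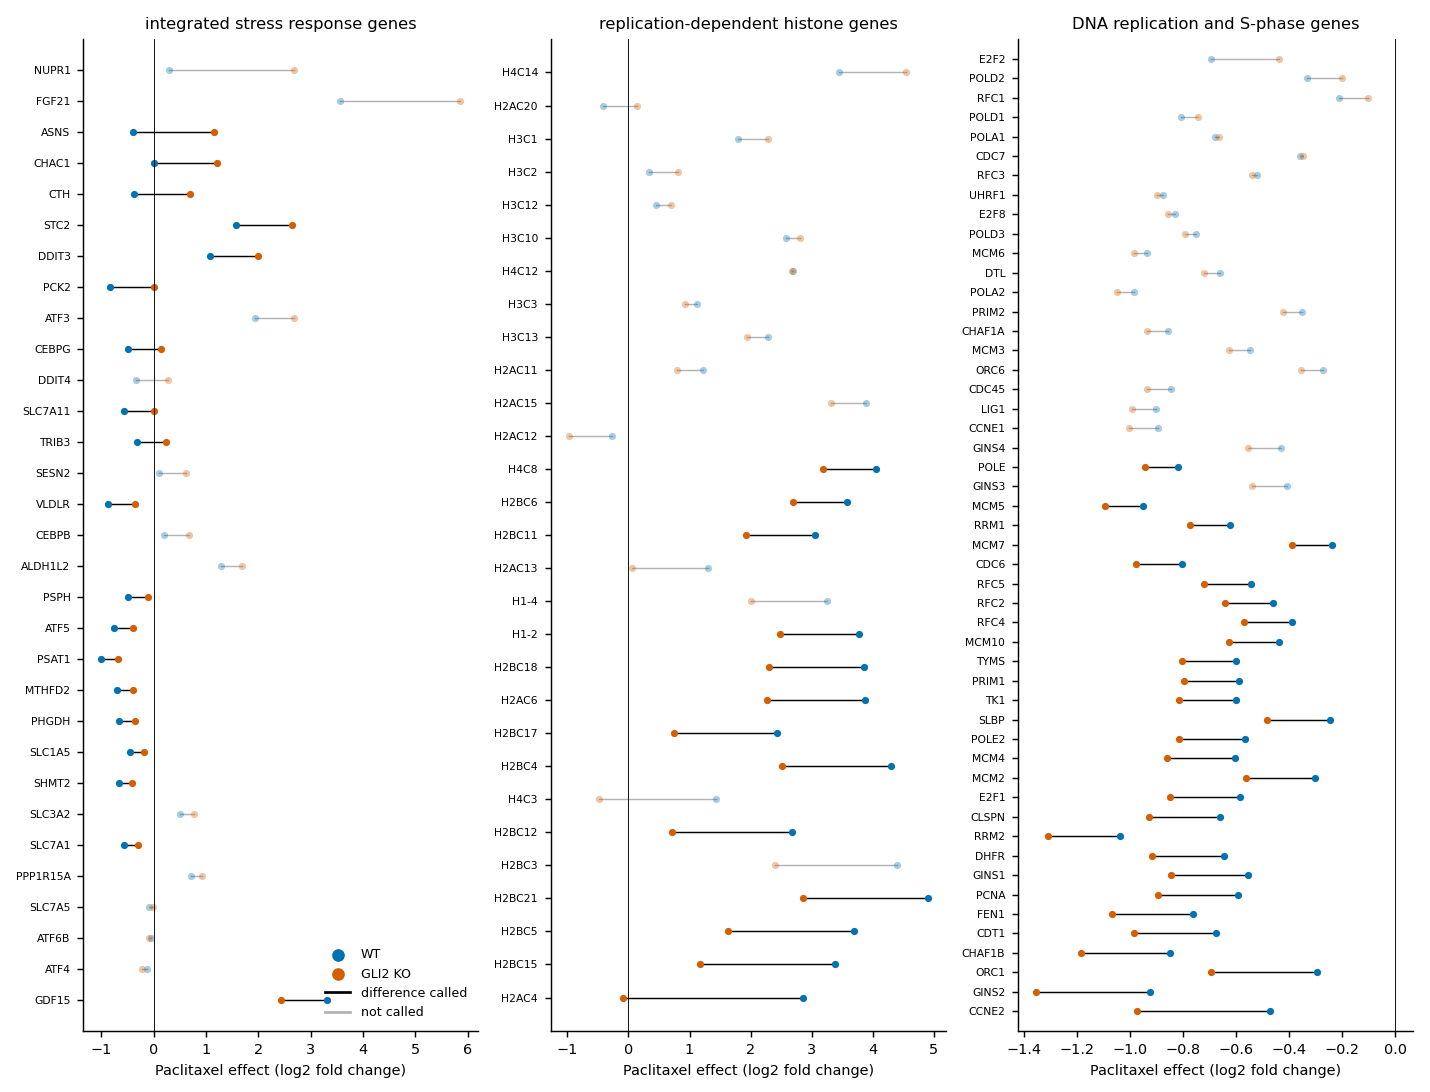
Paclitaxel effect (log2 fold change, horizontal axes with different ranges) in WT (blue) and GLI2 KO (orange) cells for each tested member of 3 gene lists, sorted by the difference, with called members in full colour and others pale. GLI2 KO points lie to the right of WT for 28 of 31 integrated stress response genes and to the left for 23 of 29 histone genes and 44 of 50 DNA replication genes.

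Promoter letters were read for members of these lists because several moved together. RefSeq promoters (GRCh38.p14, here the 250 bases before the start) matched 13024 of the 21974 genes tested. An ATF4 element, spelt TGATGNAAN and searched on both strands, was added after the data were seen and stood in 1.6% of the promoters matched. It stood in 4 of the 26 matched promoters of integrated stress response genes tested (15.4%), in 2 of the 16 of called members (12.5%), ASNS and CHAC1, and in 6 of 75 promoters (8.0%) of genes with opposite effects that rose in the knockout. The CCAAT box (CCAAT, both strands) stood in 34.4% of all matched promoters. It stood in 16 of the 26 integrated stress response promoters (61.5%) and in 12 of the 16 of called members, and in 23 of 26 histone promoters (88.5%) and in 12 of the 13 of called members. Members that were not called thus held these letters too. The GLI motif GACCACCCA stood in 26 promoters (0.2%) and in 0 of the 75. A match is a description of letters in this window and not evidence of binding. The promoters of ASNS and CHAC1 are shown for the element and that of H2BC5 for its CCAAT boxes, 5′ to 3′ on the gene's strand, with matched motifs in capitals.
ASNS, chr7:97872409-97872658, minus strand: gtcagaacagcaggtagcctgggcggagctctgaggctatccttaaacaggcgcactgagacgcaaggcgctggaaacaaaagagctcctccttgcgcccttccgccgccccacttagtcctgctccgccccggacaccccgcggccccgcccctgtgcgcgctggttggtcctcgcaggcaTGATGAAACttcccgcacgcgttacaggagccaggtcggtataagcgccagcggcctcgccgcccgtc
CHAC1, chr15:40953221-40953470, plus strand: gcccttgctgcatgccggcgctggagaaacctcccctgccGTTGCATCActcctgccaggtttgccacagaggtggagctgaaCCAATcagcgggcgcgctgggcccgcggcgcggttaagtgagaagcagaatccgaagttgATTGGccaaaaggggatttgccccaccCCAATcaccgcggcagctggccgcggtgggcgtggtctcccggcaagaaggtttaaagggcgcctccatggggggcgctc
H2BC5, chr6:26157871-26158120, plus strand: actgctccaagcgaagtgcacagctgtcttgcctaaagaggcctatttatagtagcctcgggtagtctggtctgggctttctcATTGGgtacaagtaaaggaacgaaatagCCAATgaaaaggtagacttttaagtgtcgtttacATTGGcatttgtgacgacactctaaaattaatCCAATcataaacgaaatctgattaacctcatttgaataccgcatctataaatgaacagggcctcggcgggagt
The element in ASNS begins 68 bases before the start and that in CHAC1, which reads on the other strand, 210 bases before it. CHAC1 also holds CCAAT boxes 80, 107 and 167 bases before the start, and H2BC5 holds them at 73, 105, 139 and 167 bases.

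Of 29 replication-dependent histone genes tested, 13 rose less in GLI2 KO cells and 16 did not pass the test of the difference. These genes supply histones to replicating DNA, and their transcripts normally end in a stem-loop with no poly(A) tail, whereas the RNA sequenced here was polyadenylated. The list has 62 members, and 0 of those tested were called higher in GLI2 KO. On the higher side 0 members had an unadjusted p below 0.05, and DESeq2 and limma-voom called 0. The 13 are 44.8% of those tested, against 13.5% of all genes. The difference was above 0 in 6 of the 29, among them H3C10 (effects of 2.58 and 2.81) and H4C14 (3.44 and 4.54), which were not called. The median effect was 2.862 in WT and 1.948 in GLI2 KO cells, with a median difference of -1.13. In WT cells 24 of the 29 rose, where 34.6% of all genes rose, and in GLI2 KO cells 22 rose. Called members were genes of H2B, H2A, H1 and H4, and 0 of the 6 H3 genes tested was called by edgeR. For H2B the count was 9 of 10. Without libraries 11 and 12 the number called lower was 12, and across refits it was 12 to 15, with 0 called higher in each.

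H2BC5 was measured at 1.95, 1.73 and 1.76 CPM in WT cells in DMSO and at 21.9, 22.7 and 26.5 CPM in paclitaxel. The GLI2 KO samples held H2BC5 at 2.79, 2.44 and 2.70 CPM in DMSO and at 7.44, 8.24 and 8.86 CPM in paclitaxel. The knockout was above WT in DMSO and below it in paclitaxel with no overlap. The H2BC5 effects of 3.70 and 1.63 differed by -2.07 ± 0.13 (adjusted p = 4.0e-10). H2BC21 was at 0.589, 0.415 and 0.587 CPM in WT cells in DMSO and at 15.2, 15.3 and 17.6 CPM in paclitaxel. H2BC21 in the knockout was at 0.513, 0.442 and 0.622 CPM in DMSO and at 3.92, 3.79 and 3.83 CPM in paclitaxel. The genotypes overlapped in DMSO and were apart in paclitaxel, and the H2BC21 effects of 4.90 and 2.87 differed by -2.04 ± 0.20 (adjusted p = 4.6e-07). H2BC15 had effects of 3.39 and 1.17. H2AC4 had effects of 2.86 and -0.09 at levels of at most 0.286 CPM, and its call was lost in 5 of the 12 refits that left out a single sample. Members of these families are near-identical, so counts may be exchanged between single genes.

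DNA replication and S-phase genes fell in every case, and many fell further in GLI2 KO cells. All 50 members tested fell in both genotypes, where 32.1% of all genes tested fell in WT and 32.2% in GLI2 KO cells. In the difference of effects, 28 of the 50 members were called lower in GLI2 KO and 0 higher. All 28 were larger falls, and they are 56.0% of the members against 13.5% of all genes. DESeq2 and limma-voom also called 0 higher, and 2 had an unadjusted p below 0.05 on that side. Over all 50 members the median effects were -0.602 in WT and -0.809 in GLI2 KO cells, and the median difference was -0.152. Among the called members the difference ran from -0.504 for CCNE2 to -0.125 for POLE. Without libraries 11 and 12 the number called lower was 29 with 1 higher, and across refits 22 to 29 were called lower.

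GINS2, a subunit of the replicative helicase, was at 66.0, 66.1 and 65.3 CPM in WT cells in DMSO and at 34.8, 34.2 and 35 CPM in paclitaxel. For GINS2 the GLI2 KO values were 61.1, 60.9 and 54.7 CPM in DMSO and 23.2, 23.3 and 22.6 CPM in paclitaxel. The knockout was below WT in both treatments. The GINS2 effects of -0.92 and -1.35 differed by -0.43 ± 0.05 (adjusted p = 1.1e-05). ORC1, the largest subunit of the origin recognition complex, had effects of -0.29 and -0.70, with the genotypes sharing a range in DMSO. CCNE2, a cyclin of the entry into S phase, had effects of -0.47 and -0.98 and other genes, INTS8 most of all, overlap 37.1% of its exon bases. PCNA, the replication clamp, had effects of -0.59 and -0.89, and RRM2, which makes deoxynucleotides, had effects of -1.04 and -1.31. PCNA and RRM2 were named after their values were seen.

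Mitotic genes did not share that direction. Of 44 G2/M and mitosis genes tested, 6 were called higher in GLI2 KO and 4 lower (22.7%, against 13.5% of all genes tested), with a median difference of 0.028. CENPE, a kinetochore motor, fell less in GLI2 KO cells (effects of -0.62 and -0.25), and HMMR, a spindle protein, fell in WT (-0.25) with an effect of 0.11 in GLI2 KO cells. SPC24, a kinetochore subunit, fell further in the knockout (effects of -1.03 and -1.39). Whether the difference between the S-phase and mitotic lists is beyond chance was not tested.

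**Figure D5:**
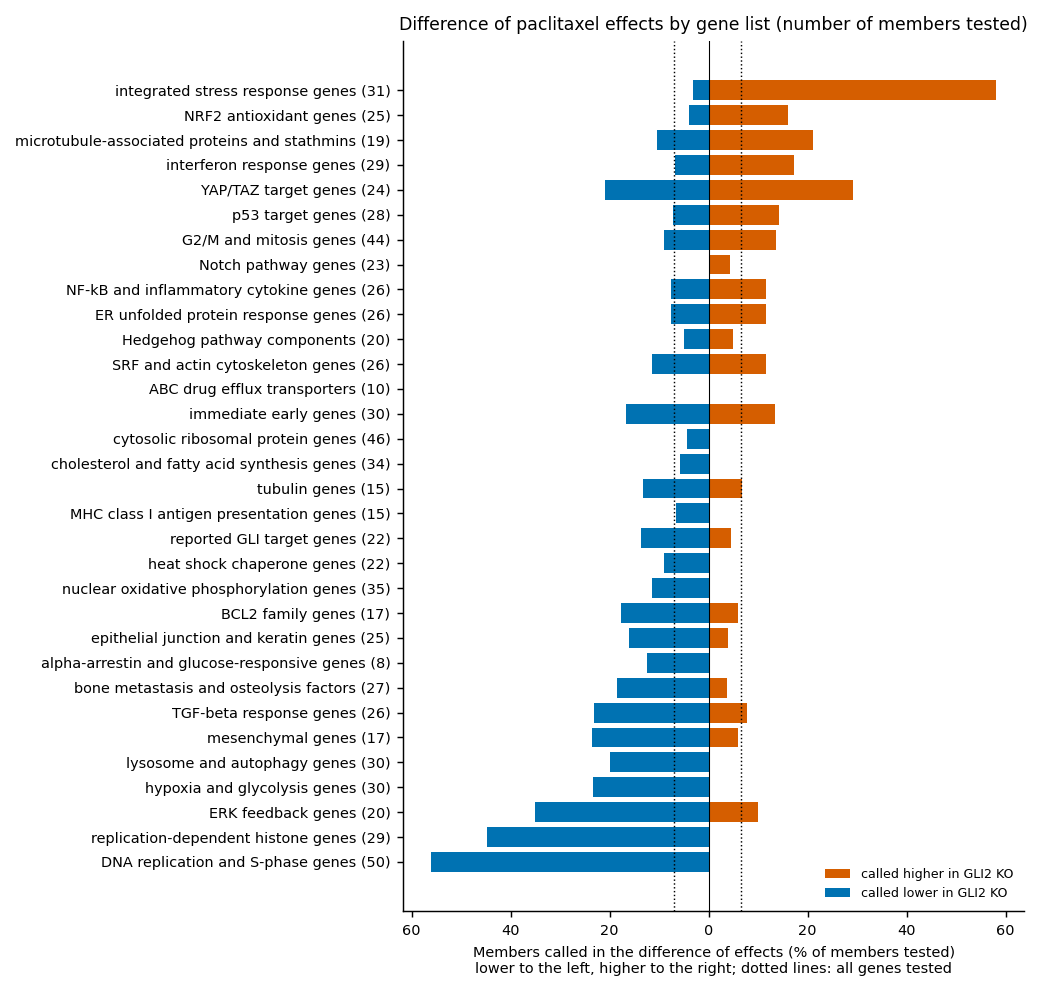
Share of tested members called higher (right, orange) and lower (left, blue) in GLI2 KO in the difference of paclitaxel effects, for 32 gene lists, with the number of members tested in brackets and dotted lines at the shares over all genes tested (6.56% higher and 6.93% lower). Integrated stress response genes lie furthest to the right with 18 of 31 members called higher, and DNA replication genes furthest to the left with 28 of 50 called lower.

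The pathway of the targeted gene was covered by 2 lists, with 10% and 18.2% of members called against 13.5% of all genes tested. Of 20 Hedgehog pathway components tested, STK36, a kinase of the pathway, was called higher and CDON, a co-receptor, lower. STK36 fell in WT (-0.16) and rose in GLI2 KO cells (0.12), and CDON fell by more in the knockout (effects of -0.22 and -0.43). The CDON call was lost without libraries 11 and 12 and without libraries 5, 11 and 12 (adjusted p of at most 0.0571). Of 22 reported GLI target genes 1 was called higher and 3 lower. CCND2, a D-type cyclin, was at 0.377, 0.403 and 0.395 CPM in WT cells in DMSO and at 1.71, 1.69 and 1.72 CPM in paclitaxel. Knockout cells held CCND2 at 0.0513, 0.0794 and 0.0222 CPM in DMSO and at 1.06, 1.29 and 1.53 CPM in paclitaxel. The CCND2 effects of 2.12 and 4.65 differed by 2.53 ± 0.38 (adjusted p = 0.00011), though the gain in CPM was 1.31 in WT and 1.25 in GLI2 KO cells. BMP4, a growth factor of the TGF-beta family, rose by 0.64 in WT and by 0.11 in GLI2 KO cells. SOX9 fell in GLI2 KO cells (-0.45) with an effect of 0.02 in WT. PTHLH, named after its values were seen, was at mean levels of 0.489 to 1.25 CPM and was not called (effects of 1.21 and 0.99, adjusted p = 0.65).

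The drug's own target and its transport were covered by 3 lists. Of 15 tubulin genes 1 was called higher and 2 lower (20% in all, against 13.5% of all genes tested): TUBE1 fell in WT (-0.40) with an effect of -0.06 in GLI2 KO cells, TUBA1A rose by 0.66 and 0.44, and TUBB6 rose in WT (0.16) with an effect of -0.10. The TUBA1A and TUBB6 calls were each lost in at least 1 refit, and leaving out single samples gave 0 to 8 tubulin genes called lower. Of 19 microtubule-associated proteins and stathmins 4 were called higher and 2 lower (31.6%). MAP1A rose by 1.23 in WT and by 1.64 in GLI2 KO cells, and CKAP5, a microtubule polymerase, fell by less in the knockout (effects of -0.49 and -0.33), a call lost without WT replicate 3 in paclitaxel (adjusted p = 0.0504). Of 10 ABC drug efflux transporters 0 were called by edgeR, an unadjusted p below 0.05 was reached by 2 on the higher side and 1 on the lower side, and DESeq2 called 1 higher. Among them, ABCC1 had effects of -0.03 and -0.13 and ABCG2 effects of 0.69 and 0.57.

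Signalling genes showed calls in both directions. Of 20 ERK feedback genes 2 were called higher and 7 lower (45.0%, against 6.56% higher, 6.93% lower and 13.5% in all among genes tested). DUSP2, a phosphatase of ERK, rose further in GLI2 KO cells (effects of 2.10 and 3.16) and so did DUSP8 (0.86 and 1.67), whereas IER3 rose less (1.21 and 0.52). Of 30 immediate early genes 4 were called higher and 5 lower (30.0%), with 2 to 10 higher and 4 to 11 lower across refits. EGR3 was at 0.232 to 0.522 CPM in WT cells in DMSO and 1.68 to 1.72 CPM in paclitaxel, against 0.0333 to 0.215 CPM and 3.40 to 3.90 CPM in GLI2 KO cells. The EGR3 effects of 1.97 and 4.67 differed by 2.69 ± 0.42 (adjusted p = 0.00046). JUN was at 165, 134 and 154 CPM in WT cells in DMSO and at 262, 261 and 296 CPM in paclitaxel, while the GLI2 KO samples of both treatments lay between 119 and 165 CPM. The JUN difference of -0.88 ± 0.17 (adjusted p = 0.013) lost its call when consecutive library numbers entered as a block (adjusted p = 0.0675).

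Of 24 YAP/TAZ target genes 7 were called higher and 5 lower (50.0%, against 13.5% of all genes tested), with a median difference of 0.004. CCN1, a matricellular protein, fell in GLI2 KO cells (-0.55) with an effect of -0.07 in WT, and its relative CCN2 rose in WT (0.46) with an effect of 0.04 in GLI2 KO cells. DLC1 rose further in the knockout (effects of 0.32 and 0.67). The calls of CCN2 and DLC1 were lost with the block of consecutive library numbers (adjusted p = 0.0982 and 0.0803). Of 26 TGF-beta response genes 2 were called higher and 6 lower (30.8%), with 1 to 7 higher and 2 to 7 lower across refits, and PMEPA1 was among the higher genes (effects of 0.46 and 1.51). Of 26 NF-kB and inflammatory cytokine genes 3 were called higher and 2 lower (19.2%, with 1 to 6 and 2 to 4 across refits): the subunits RELB, NFKB2 (0.61 and 0.92) and NFKB1 (0.09 and 0.24) on 1 side, and the cytokine CSF2 (1.91 and 0.82) and the regulator NFKBIZ (0.27 and -0.08) on the other. Of 29 interferon response genes 5 were called higher and 2 lower (24.1%, with 3 to 6 and 1 to 3 across refits), with IFI44L rising by 1.02 in WT and by 0.23 in GLI2 KO cells. Of 23 Notch pathway genes 1 was called higher and 0 lower (4.3%, with 0 to 3 and 0 to 2 across refits).

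Bone metastasis and osteolysis factors were called in 6 of 27 cases, 1 higher and 5 lower (22.2%, against 13.5% of all genes tested). Across refits 1 to 3 were called higher and 3 to 9 lower, with 9 lower without libraries 11 and 12. ADAMTS1, a secreted protease, was at 35.4, 32.4 and 30.9 CPM in WT cells in DMSO and at 57.0, 64.4 and 74.0 CPM in paclitaxel. With the knockout, ADAMTS1 was at 99.8, 112 and 60.8 CPM in DMSO and at 71.0, 69.1 and 64.3 CPM in paclitaxel. WT cells gained the transcript with no overlap, and GLI2 KO replicate 3 in DMSO lay apart from the other controls and below the treated samples. The ADAMTS1 difference was -1.40 ± 0.29 (adjusted p = 0.017), and -1.58 without libraries 11 and 12. ITGB3, an integrin subunit, fell in WT (-0.42) and rose in GLI2 KO cells (0.24), and other genes overlap 51.6% of its exon bases. Of 25 epithelial junction and keratin genes 1 was called higher and 4 lower (20%), and of 17 mesenchymal genes 1 higher and 4 lower (29.4%). Across refits 0 to 6 of the junction and keratin genes were called lower, with 0 in 3 of the refits that left out a single sample, and 2 to 5 of the mesenchymal genes. Among the mesenchymal genes the median difference was -0.13, and the 4 called lower were S100A4, SPARC, FN1 and VIM. COL1A1, a collagen chain, was the 1 called higher and rose further in the knockout (effects of 0.29 and 0.79). Of the junction genes called lower, CLDN1, a tight junction protein, rose by 0.90 and 0.51. The CLDN1 call was lost in 6 of the 12 refits that left out a single sample (adjusted p of at most 0.125).

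Metabolic and stress lists other than the integrated stress response had between 4.3% and 23.3% of their members called, against 13.5% of all genes tested. Of 30 hypoxia and glycolysis genes 7 were called lower and 0 higher, with 4 to 11 lower across refits. ADM, which encodes the vasodilator adrenomedullin, was at 33.0, 36.1 and 33.2 CPM in WT cells in DMSO and at 92.2, 97.2 and 107 CPM in paclitaxel. The GLI2 KO samples held ADM at 34.5, 33.8 and 31.1 CPM in DMSO and at 47.7, 46.6 and 50.5 CPM in paclitaxel. The genotypes shared a range in DMSO and were apart in paclitaxel, and the ADM effects of 1.54 and 0.54 differed by -1.0 ± 0.08 (adjusted p = 6.5e-07). PFKFB4, a regulator of glycolysis, rose in WT (0.43) with an effect of 0.01 in GLI2 KO cells.

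Of 25 NRF2 antioxidant genes 4 were called higher and 1 lower, with 3 to 7 and 1 to 5 across refits. AKR1C1, an aldo-keto reductase, rose in GLI2 KO cells (1.42) with an effect of -0.12 in WT, and HMOX1, which breaks down heme, rose by 1.30 in WT and by 0.28 in GLI2 KO cells. Of 26 ER unfolded protein response genes 3 were called higher and 2 lower, with 2 to 7 and 2 to 3 across refits. ERN1, the stress sensor IRE1, rose by 0.43 and 1.01, and XBP1, the factor whose transcript IRE1 splices, fell in WT (-0.40) with an effect of 0.06 in GLI2 KO cells. Of 22 heat shock chaperone genes 2 were called lower, HSPB8 and HSP90AA1, and 0 higher. Of 34 cholesterol and fatty acid synthesis genes 2 were called lower and 0 higher, with 1 to 3 and 0 to 4 across refits. Of 30 lysosome and autophagy genes 6 were called lower and 0 higher, led by GPNMB, which rose by 2.71 and 1.68. Across refits 4 to 10 lysosome genes were called lower and 0 to 3 higher. Of 46 cytosolic ribosomal protein genes 2 were called lower, of 35 nuclear oxidative phosphorylation genes 4, and of 15 MHC class I antigen presentation genes 1, with 0 called higher in each. Across refits 0 to 5 ribosomal, 3 to 7 oxidative phosphorylation and 0 to 3 MHC class I genes were called lower. On the higher side the refits gave 0 to 3 ribosomal, 0 to 3 oxidative phosphorylation and 0 MHC class I genes. At an unadjusted p below 0.05, edgeR placed 5 lysosome, 3 oxidative phosphorylation, 2 chaperone, 2 synthesis, 1 MHC class I, 0 hypoxia and 0 ribosomal genes on the higher side, and DESeq2 called 3 lysosome genes and 1 oxidative phosphorylation gene higher.

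Genes of cell death and the cytoskeleton were called in both directions. Of 28 p53 target genes 4 were called higher and 2 lower (21.4%, against 13.5% of all genes tested), and of 17 BCL2 family genes 1 higher and 3 lower (23.5%). Across refits 1 to 7 p53 target genes were called higher and 1 to 5 lower. BBC3, the pro-apoptotic protein PUMA, was at 5.66, 5.49 and 5.34 CPM in WT cells in DMSO and at 5.16, 4.61 and 4.34 CPM in paclitaxel. BBC3 in the knockout was at 6.85, 7.63 and 5.78 CPM in DMSO and at 9.04, 8.88 and 7.42 CPM in paclitaxel. The WT treatments did not overlap and the GLI2 KO ones met, and the BBC3 difference was 0.55 ± 0.13 (adjusted p = 0.0086). PMAIP1, the related protein NOXA, rose in both genotypes and by less in the knockout (effects of 0.71 and 0.43). Of 26 SRF and actin cytoskeleton genes 3 were called higher and 3 lower (23.1%, with 2 to 3 and 1 to 6 across refits), including CNN1 (effects of 0.62 and 1.5) and CALD1 (-0.50 and -0.30).

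Calls among markers of other cell types rested on 1 gene in each list outside the luminal markers. Among the luminal breast markers XBP1 was called higher and KRT8 lower, and the KRT8 call was lost in at least 1 refit. PGR, a luminal marker, was at 2.18, 2.29 and 2.98 CPM in GLI2 KO cells in DMSO and at 0.953, 0.841 and 0.716 CPM in paclitaxel, and at 0.011 CPM or below in every WT sample. Its difference of effects was not called. Of the remaining lists, COL1A1 was called higher among 5 fibroblast and osteoblast markers (20%), KDR higher among 4 endothelial markers (25%), CD14 lower among 6 haematopoietic markers (16.7%), against 13.5% of all genes tested, and PAX8 lower as the single kidney marker tested. KDR, a receptor for vascular endothelial growth factor, was at 1.93 to 2.25 CPM in WT cells in DMSO and 2.57 to 2.98 CPM in paclitaxel, against 0.0641 to 0.133 CPM and 0.665 to 0.970 CPM in GLI2 KO cells. The KDR effects of 0.46 and 3.03 differed by 2.57 ± 0.29 (adjusted p = 2.9e-06), with CPM gains of 0.777 and 0.762.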

How the data were processed

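Polyadenylated RNA of 12 MDA-MB-231b samples in 4 groups of 3 was analysed from the counts that the authors deposited, whole numbers per gene with no normalization. Tools listed, without roles, in the submitters' processing notes are DESeq2 1.36.0, STAR and Trim Galore 0.6.7, and the build is hg38. The sources used here give no counting tool, annotation or strand setting. Rows without a gene name numbered 0, and unused columns 0. A deposited normalized table holds the counts over 1 factor per sample and was not used.

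The test was edgeR 4.0.16's quasi-likelihood F test (robust, R 4.3.3) on all 12 samples, with TMM factors, filterByExpr by group at a minimum count of 10, 8 residual degrees of freedom and Benjamini-Hochberg adjustment over 21974 genes. Approximate standard errors were taken as the size of a log2 effect divided by the root of its F statistic. Totals of 83230948 to 109018776 counts limit low genes. Scripts were tested on simulated counts. Gene positions and exon overlap come from GENCODE 29 on GRCh38, which matched 23414 genes, with 5586 rows under an Ensembl ID.

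Named genes were, among called genes of at least 5 CPM in a group with a symbol and more than 3 counts in each group, the 5 with the greatest difference in each of 6 sets, up to 3 called members per list (37 lists) and GLI2. Other genes are named with the reason. The members, lists and rules were chosen with earlier results of these data known. Replicates were numbered in accession order. Alternatives used other scaling factors, filters, thresholds, DESeq2 1.42.0, limma-voom (limma 3.58.1), a block of consecutive library numbers and omission of samples. Set tests were not run.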

Additional observations from a re-analysis of the deposited data

Results flagged for a closer look

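The genotypes differed in their paclitaxel effect for 2963 genes by the test of the difference itself (edgeR, adjusted p below 0.05). The 5 genes of at least 5 CPM in a group with the greatest difference in each direction of opposite effects passed the same test, and all 10 were called in each of the 22 refits, while 6 of them fell short of a 2-fold difference. On the log2 scale the difference was 1.07 for CTH, 0.82 for HOXB9, 0.80 for GALNT12, 0.77 for PPP4R4 and 0.77 for LINC00452, which fell in WT and rose in GLI2 KO cells. It was -1.75 for HAS2, -1.20 for DNM1, -1.20 for MAP2, -0.93 for FREM2 and -0.92 for DSC2, which rose in WT and fell in GLI2 KO cells. With 3 samples in each group, no outlier test was applied to the values of single genes.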

How the results depend on the processing

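The 6 counts of genes called (all, higher, lower, opposite, larger, smaller) stayed within 1.5 times their reported value under 3 other scalings, 2 other filters, DESeq2, limma-voom and every omission of samples, with 2128 to 3443 genes called when a single sample was left out. Counts beyond that range were the opposite set with the block and the counts at stricter thresholds. With consecutive library numbers as a block, 3832 genes were called, which is within that range, with 98.6% of the 2963 among them. The opposite set grew beyond it, from 155 to 237. Labels do not state that these libraries are pairs. Deviations of consecutive libraries correlated at 0.128, 0.166 and 0.253 in GLI2 KO and at 0.0509, 0.0392 and 0.154 in WT cells. Other pairings of a DMSO with a paclitaxel library of the same genotype correlated lower on the whole. They lay at -0.227 to 0.144 in GLI2 KO and at -0.134 to 0.104 in WT cells. The libraries were kept unpaired because of the labels, and whether they are pairs was not tested. At an adjusted p below 0.01, 1381 genes were called, 693 higher and 688 lower, with 62 opposite, 641 larger and 675 smaller effects. At a 2-fold difference, 307 were called, 104 higher and 203 lower. Without libraries 5, 11 and 12, an alternative chosen after seeing the data, 3775 were called, which is within 1.5 times the reported value.

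Of the 108 named and called genes, 79 kept their call in every refit, 29 lost it in at least 1, 3 of them (JUN, CCN2 and DLC1) with the block, and 0 changed sign. On the scale of CPM gained, the difference had the other sign for SATB1 (1.60), CCND2 (-0.0661), TUBA1A (0.656), HSPB8 (6.17), CNN1 (-0.106), CLDN1 (0.857), GPNMB (2.21) and KDR (-0.0153). For these 8 genes the baseline level differed between genotypes. Low genes are limited by depth, and 23 called genes had 3 counts or fewer in a whole group.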
